A study of Homo sapiens with 6 samples.

Results

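HMOX1, the gene of heme oxygenase 1, was examined together with NFE2L2, the gene of the transcription factor NRF2, and with NQO1, GCLM, GCLC, TXNRD1, SRXN1, OSGIN1, FTL and FTH1, which are known NRF2 target genes. These 10 genes were matched by symbol among the 26255 gene symbols of each library, and all 10 were found. HMOX1 was picked from the comparisons described here for the size of its rise, so its values are given as a description without a test. The other 9 genes were named for their known place in the NRF2 pathway, with earlier results of these data known, and the question asked was whether HMOX1 rose together with them.

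The libraries came from the human colorectal cancer cell line HCT116, in 3 groups of 2: parent cells, cells labelled siLINC01534-1 and cells labelled siLINC01534-2. The latter 2 groups are knockdown cells according to their labels, each given a different small interfering RNA (siRNA) against the long noncoding RNA LINC01534. No source used here describes a transfection of the parent cells, and the effect of the procedure and that of an siRNA cannot be told apart, and cells given a negative control siRNA were not analysed here. Nothing in the labels says whether the 2 libraries of a group are separate cultures, and p-values measure the spread between these libraries only. The time between transfection and harvest is not given in the sources used here.

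Poly(A)-selected RNA was sequenced, and the level of a gene is given as FPKM, the number of sequenced fragments scaled to the exon length of the gene and to the size of the library. The depth estimated from the steps between low values was between 8690000 and 10400000 reads per library. LINC01534 itself was listed at 0.285 and 0.571 FPKM in parent cells, at 0 and 0.283 with siLINC01534-1, and in the siLINC01534-2 libraries at 0.660 and 0.551. These levels lay below the filter used for testing and amount to between 0 and 2 steps of the smallest value above 0, as single reads would give, so a difference in LINC01534 between the groups was not detectable at this depth in either direction. The groups are called by their labels throughout. All 6 epithelial markers examined (EPCAM, CDH1, KRT8, KRT18, KRT19 and CLDN4) were at 1 FPKM or more in all 6 libraries. Their summed FPKM was 3523 and 3585 in parent cells, 3029 and 3035 with siLINC01534-1, and 3606 and 3429 with siLINC01534-2. With siLINC01534-1, KRT8, KRT18 and KRT19 were lower and CLDN4 was higher than in parent cells (limma, adjusted p under 0.05). With siLINC01534-2, CDH1, KRT19 and CLDN4 were higher and none was lower. Of 10 markers of other cells, 7 were below 1 FPKM in all libraries and 2 of these, CD3E and DCN, were at 0, while CD68, COL1A1 and MBP were above 1. The summed FPKM of these 10 was between 18.31 and 19.30 in parent cells, between 19.34 and 20.69 with siLINC01534-1 and between 21.10 and 21.59 with siLINC01534-2, and its part in the results was not tested. Of the 3 above 1, CD68 was higher with siLINC01534-2 (3.92 and 2.88 FPKM in parent cells, 6.18 and 6.10 with that siRNA, limma, adjusted p = 0.017), and COL1A1 was higher with siLINC01534-1 (3.02 and 3.05 against 5.79 and 5.12, adjusted p = 0.0025). In RNA from whole cultures, a change in the number of cells that express a gene and a change in RNA per cell cannot be told apart.

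As background, NRF2 is held in the cytoplasm by KEAP1, which hands it to an E3 ubiquitin ligase for degradation. Oxidants and electrophiles modify KEAP1, and NRF2 then accumulates, pairs with a small MAF protein and binds antioxidant response elements near genes of glutathione synthesis, thioredoxin recycling, quinone reduction and iron storage. HMOX1 is a target of NRF2 that is also held down by the repressor BACH1 and can be induced by other stress pathways. The NRF2 protein is largely set by its stability, which RNA levels do not show.

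Sequence from before the start sites is shown here because the antioxidant response element is the sequence through which NRF2 is known to act. RefSeq windows on GRCh38.p14, from 250 bases before to 50 bases after a start, were matched for 8 of the 10 genes (10 windows). HMOX1 and FTH1 had no entry. The core motif TGACNNNGC was searched on both strands, and it was present in 13.3% of all 35116 windows of the same length, that is, in at least 1 window of 16.1% of all 27305 genes with an entry. Of the 8 genes, 2 had it, GCLM and TXNRD1, in 3 of the 10 windows. The matches are printed 5′ to 3′ on the strand of the gene with 10 bases on each side, and capitals mark the motif, which reads as its reverse complement where it lies on the opposite strand. They lie at chr1:93909446-93909474 (minus strand, GCLM), chr12:104215670-104215698, chr12:104215761-104215789 and chr12:104286920-104286948 (plus strand, TXNRD1, the last in a second window), in that order. The motifs begin 34 bases before the start of GCLM, and 99 and 8 bases before the first and 102 bases before the second start of TXNRD1.
GCLM: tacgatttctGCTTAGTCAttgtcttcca
TXNRD1, first window: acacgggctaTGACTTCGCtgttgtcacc
TXNRD1, first window: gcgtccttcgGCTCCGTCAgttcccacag
TXNRD1, second window: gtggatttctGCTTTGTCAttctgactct

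The whole stretch of 250 bases before the start is given for GCLM (chr1:93909431-93909680, minus strand) and for both starts of TXNRD1 (chr12:104215529-104215778 and chr12:104286782-104287031, plus strand), again with the motif in capitals. In the first TXNRD1 stretch the last motif runs 1 base past the end of the stretch.
GCLM: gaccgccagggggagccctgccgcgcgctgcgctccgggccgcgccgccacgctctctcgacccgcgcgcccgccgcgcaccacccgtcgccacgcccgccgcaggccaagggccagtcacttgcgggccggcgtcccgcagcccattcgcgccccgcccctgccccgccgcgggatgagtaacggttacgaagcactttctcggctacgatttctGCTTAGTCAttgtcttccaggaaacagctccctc
TXNRD1, first window: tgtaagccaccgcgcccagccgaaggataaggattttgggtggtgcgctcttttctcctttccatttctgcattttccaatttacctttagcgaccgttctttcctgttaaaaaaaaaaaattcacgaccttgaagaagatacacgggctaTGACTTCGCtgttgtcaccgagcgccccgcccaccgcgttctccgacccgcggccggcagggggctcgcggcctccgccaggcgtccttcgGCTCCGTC
TXNRD1, second window: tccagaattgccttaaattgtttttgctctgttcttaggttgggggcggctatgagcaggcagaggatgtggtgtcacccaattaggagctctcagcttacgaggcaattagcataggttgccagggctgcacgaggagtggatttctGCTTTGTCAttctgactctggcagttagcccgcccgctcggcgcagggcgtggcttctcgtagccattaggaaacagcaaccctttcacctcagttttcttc

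The AP-1 motif TGANTCA overlaps the core in part and is bound by FOS and JUN proteins. It was present in 7.71% of all windows and in at least 1 window of 9.37% of all genes with an entry. Of the 8 genes, 1 had it, OSGIN1 (chr16:83953133-83953159, plus strand), where it begins 97 bases before the start.
OSGIN1: gggcccctgcTGACTCAcgcttatgaa
The motif TGATGNAA, bound by ATF4 together with C/EBP proteins, was found in 3.62% of all windows and 4.46% of all genes with an entry. It was found in 0 of the 8 genes. Known elements of several of these genes lie farther from the start than these windows reach, and the absence of the letters in a window says nothing of the factor.

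HMOX1 (chr22:35776354-35790207, plus strand, GRCh37), whose product cleaves heme into biliverdin, carbon monoxide and iron, stood at 19.7 and 21.0 FPKM in parent cells. It stood at 157 and 147 FPKM with siLINC01534-1, and at 92.7 and 104 FPKM with siLINC01534-2. The 4 siLINC01534 libraries were all above both parent libraries, and both siLINC01534-1 libraries were above both siLINC01534-2 libraries. The means were 20.3 ± 0.953, 152 ± 7.09 and 98.4 ± 8.05 FPKM (SD, n = 2 each), that is, 7.47 and 4.84 times the parent mean. Among 11966 tested genes outside short RNA genes, these ratios ranked 9th with siLINC01534-1 and 8th with siLINC01534-2. About 270 and 290 reads stood behind the parent values, with a counting error near 6%, and between about 1100 and 2000 reads behind the others. HMOX2, the gene of the constitutive heme oxygenase, was between 45.4 and 51.8 FPKM in all 6 libraries and did not pass the test with either siRNA (limma, adjusted p = 0.37 and 0.25).

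Tests were made with limma on log2(FPKM + 1) across the 12203 genes whose FPKM averaged 1 or more over the libraries, a Benjamini-Hochberg adjusted p under 0.05 being the threshold, and log2 changes below are on that scale. All 10 genes passed the filter. Of the 9 genes other than HMOX1, 7 were higher and 1 was lower with siLINC01534-1 than in parent cells, where 21.8% of all genes tested were higher and 24.5% were lower. All 9 were higher with siLINC01534-2, where 11.1% of all genes tested were higher and 11.8% were lower. Calls near the threshold were lost in some fits that left out a library, where fewer libraries remain and the test is weaker. The smallest of the 9 changes, those of NQO1 and NFE2L2, then stayed between 0.18 and 0.29 and between 0.212 and 0.328. The 9 log2 changes had a median of 0.81 with siLINC01534-1 and of 0.51 with siLINC01534-2, beside 0.00031 and 0.0018 over all genes tested. The 2 comparisons share the parent libraries. In 8 of the 9 genes, as in 19% of all genes tested, the 4 siLINC01534 libraries were all above both parent libraries, NQO1 being the exception.

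HMOX1 was thus higher in the same libraries as most of the other genes, and the larger size of its difference is what it was picked for. A ratio of means above 2 with siLINC01534-1 was reached by HMOX1, GCLM and OSGIN1, and by 2.65% of all genes with a ratio. With siLINC01534-2 it was reached by HMOX1, GCLC and OSGIN1, and by 1.59% of all genes with a ratio. Just inside this limit were GCLC with siLINC01534-2 at 2.13, and just outside it SRXN1 with siLINC01534-1 at 1.98.

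**Figure D1:**
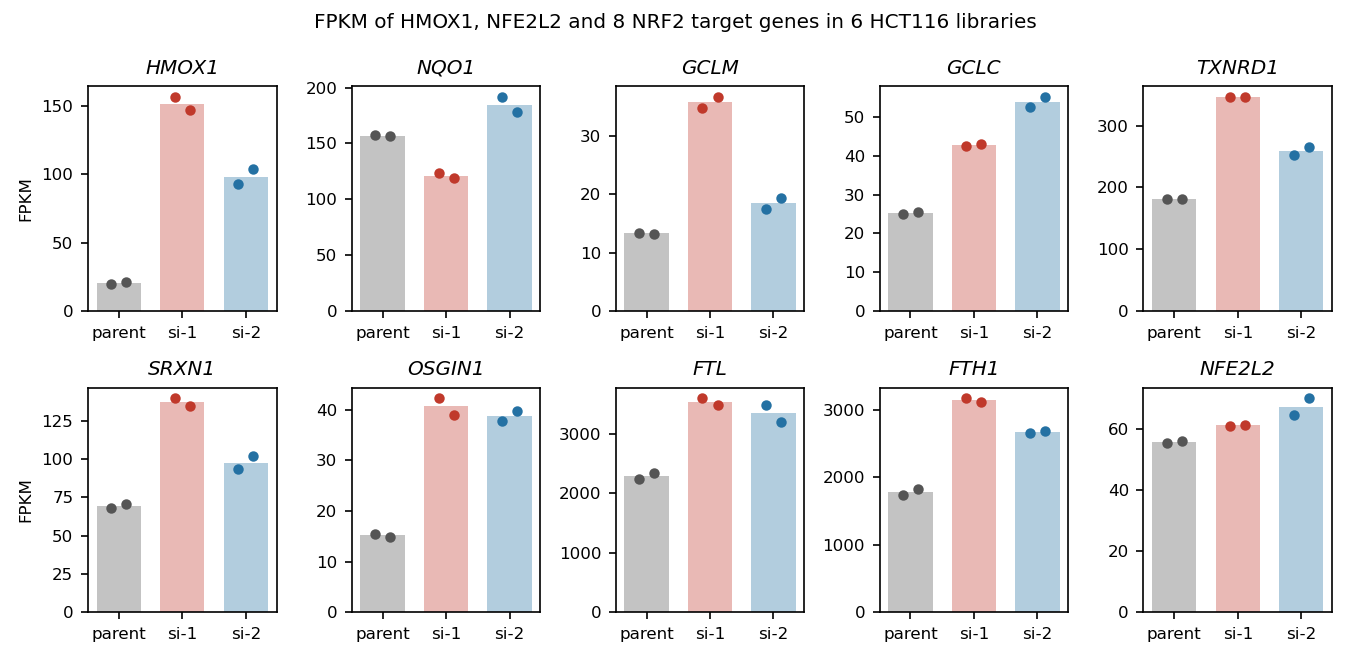
FPKM of the 10 genes in each library (points) with the group mean (bars, from 0), for parent cells, siLINC01534-1 (si-1) and siLINC01534-2 (si-2), each gene on its own axis. HMOX1 goes from a mean of 20.3 to 152 and 98.4 FPKM, while NQO1 is the gene whose siLINC01534-1 libraries lie below both parent libraries.

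Glutathione synthesis begins with glutamate-cysteine ligase, which has a catalytic subunit, GCLC, and a modifier subunit, GCLM. GCLM (chr1:94350755-94375012, minus strand) was at 13.4 and 13.2 FPKM in parent cells, at 34.8 and 36.7 with siLINC01534-1, and at 17.4 and 19.4 with siLINC01534-2. GCLC (chr6:53362139-53481768, minus strand) was at 25.1 and 25.6 FPKM in parent cells, at 42.5 and 43.1 with siLINC01534-1, and at 52.6 and 55.3 with siLINC01534-2. Groups did not overlap in either gene, but their order differed, siLINC01534-1 being highest for GCLM and siLINC01534-2 for GCLC. GCLM rose by a log2 change of 1.36 ± 0.06 (SE) with siLINC01534-1 (limma, adjusted p = 0.00011) and of 0.44 ± 0.06 with siLINC01534-2 (adjusted p = 0.0088). GCLC rose by 0.73 ± 0.04 (limma, adjusted p = 0.00016) and by 1.06 ± 0.04 (adjusted p = 0.00025), respectively. The direct comparison of the siRNAs passed the threshold for both, with siLINC01534-1 higher by 0.92 in GCLM (limma, adjusted p = 0.00041) and lower in GCLC, by a log2 difference of -0.33 (adjusted p = 0.0026). The call of GCLM with siLINC01534-2 was lost without the first or the second parent library, where its change was 0.453 and 0.431.

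Cystine for this pathway enters through the exchanger of which SLC7A11 is the light chain. SLC7A11 was at 10.0003 and 8.63 FPKM in parent cells, at 26.1 and 26.0 with siLINC01534-1, and at 17.6 and 19.8 with siLINC01534-2. Its groups did not overlap, and both siRNAs were called higher, with log2 changes of 1.39 and 0.93 (limma, adjusted p = 0.00022 and 0.0027). It is also a known target of ATF4, whose other targets are described below.

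Thioredoxin recycling and peroxiredoxin repair are represented by TXNRD1, the cytosolic thioredoxin reductase, and SRXN1, the sulfiredoxin that reduces overoxidised peroxiredoxins. TXNRD1 (chr12:104609557-104744085, plus strand) was at 182 and 182 FPKM in parent cells, at 347 and 346 with siLINC01534-1, and at 253 and 265 with siLINC01534-2. SRXN1 (chr20:627259-633844, minus strand) was at 68.3 and 70.5 FPKM in parent cells, at 139.6 and 135 with siLINC01534-1, and at 93.4 and 102 with siLINC01534-2. In both genes the siLINC01534-1 libraries were highest, the siLINC01534-2 libraries intermediate and the parent libraries lowest, as for HMOX1. TXNRD1 rose by a log2 change of 0.93 ± 0.03 with siLINC01534-1 (limma, adjusted p = 6.9e-05) and of 0.51 ± 0.03 with siLINC01534-2 (adjusted p = 0.0013). SRXN1 rose by 0.97 ± 0.05 (limma, adjusted p = 0.00015) and by 0.48 ± 0.05 (adjusted p = 0.0041). Both were higher with siLINC01534-1 than with siLINC01534-2, by 0.42 and 0.49 (limma, adjusted p = 0.0007 and 0.0015).

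NQO1 (chr16:69740899-69760571, minus strand), a quinone reductase often used as a readout of NRF2 activity, did not follow HMOX1. It was at 157 and 156 FPKM in parent cells, at 123 and 119 with siLINC01534-1, and at 192 and 178 with siLINC01534-2. The siLINC01534-1 libraries were thus the lowest and the siLINC01534-2 libraries the highest, with no overlap of groups. NQO1 fell by 0.37 ± 0.05 on the log2 scale with siLINC01534-1 (limma, adjusted p = 0.0022) and rose by 0.23 ± 0.05 with siLINC01534-2 (adjusted p = 0.022). The difference between the siRNAs was -0.61 (95% interval -0.72 to -0.49, limma, adjusted p = 0.00059). The rise with siLINC01534-2 was not called without the first parent library, the second parent library or the first siLINC01534-2 library. It was then 0.238, 0.231 and 0.18, respectively.

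OSGIN1 (chr16:83964916-83999937, plus strand), an oxidative stress-induced growth inhibitor, was at 15.6 and 14.9 FPKM in parent cells, at 42.3 and 39.0 with siLINC01534-1, and at 37.8 and 39.7 with siLINC01534-2. Parent libraries were the lowest, and the libraries of the 2 siRNAs overlapped. Its log2 change was 1.36 ± 0.06 with siLINC01534-1 (limma, adjusted p = 8.2e-05) and 1.29 ± 0.06 with siLINC01534-2 (adjusted p = 0.00031). The siRNAs did not differ past the threshold, with a difference of 0.07 and a 95% interval from -0.07 to 0.21 (limma, adjusted p = 0.38). After HMOX1, OSGIN1 had the largest log2 change of the 10 genes with siLINC01534-2.

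Ferritin stores the iron that heme cleavage releases, and its light and heavy chains, FTL (chr19:49468566-49470136, plus strand) and FTH1 (chr11:61727190-61735106, minus strand), were the most abundant of the 10 genes. FTL was at 2244 and 2345 FPKM in parent cells, at 3598 and 3478 with siLINC01534-1, and at 3491 and 3206 with siLINC01534-2. FTH1 was at 1741 and 1831 FPKM in parent cells, at 3167 and 3108 with siLINC01534-1, and at 2658 and 2675 with siLINC01534-2. Both parent libraries were the lowest in each gene, and the siRNA groups overlapped for FTL but not for FTH1. FTL rose by a log2 change of 0.62 ± 0.05 with siLINC01534-1 (limma, adjusted p = 0.00066) and of 0.54 ± 0.05 with siLINC01534-2 (adjusted p = 0.0036). FTH1 rose by 0.81 ± 0.04 (limma, adjusted p = 0.00013) and by 0.58 ± 0.04 (adjusted p = 0.0013). Between the siRNAs, FTH1 differed by 0.23 (limma, adjusted p = 0.007), a call that was lost without the first siLINC01534-1 library (adjusted p = 0.053), and FTL by 0.08 (95% interval -0.06 to 0.22, adjusted p = 0.29). Both chains have many processed pseudogenes, so reads may be shared with near-identical copies and these levels are uncertain to that extent. The pseudogene FTH1P3 was at 1.02 FPKM or less in each library.

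NFE2L2 (chr2:178083395-178257484, minus strand), the gene of NRF2 itself, changed little. It was at 55.4 and 56.0 FPKM in parent cells, at 61.2 and 61.6 with siLINC01534-1, and at 64.7 and 70.2 with siLINC01534-2. The groups did not overlap, but their means spanned only 55.7 to 67.4 FPKM. The log2 change was 0.14 ± 0.05 with siLINC01534-1, not past the threshold (limma, adjusted p = 0.059), and 0.27 ± 0.05 with siLINC01534-2 (adjusted p = 0.015). Both changes lay near the threshold. With siLINC01534-2 the call was lost without the first parent, the second parent or the second siLINC01534-2 library. The change was then 0.262, 0.278 and 0.212, respectively. With siLINC01534-1 a call was gained without either siLINC01534-2 library, while the change stayed at 0.138. The difference between the siRNAs was -0.13 (95% interval -0.25 to -0.02, limma, adjusted p = 0.071), and it passed without the first siLINC01534-2 library (adjusted p = 0.034).

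**Figure D2:**
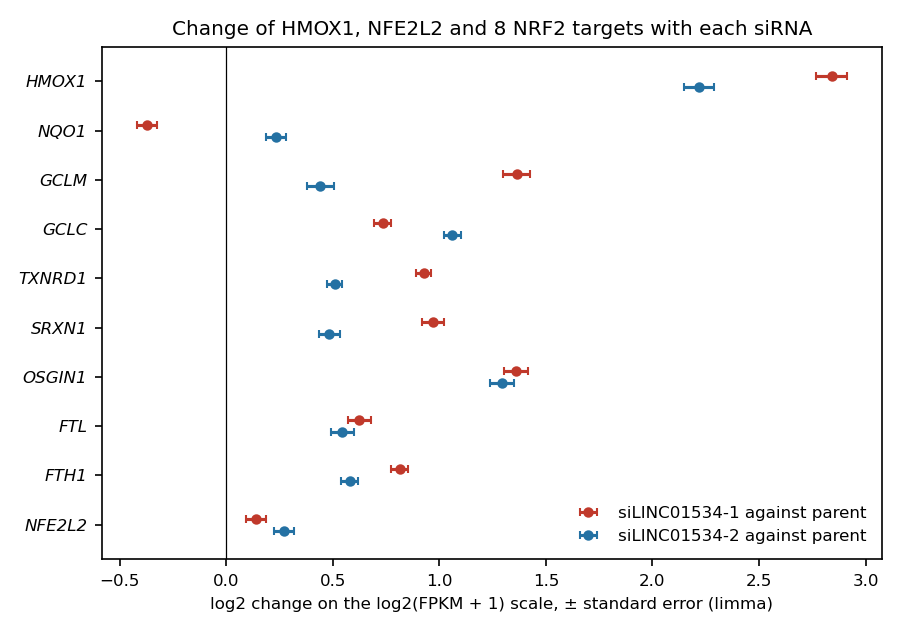
Log2 change of each of the 10 genes against parent cells (x axis, limma on log2(FPKM + 1)) with siLINC01534-1 (red) and siLINC01534-2 (blue), the bars being the standard error. HMOX1 stands at 2.84 and 2.22, and the other genes lie between -0.37 and 1.36.

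When the siRNAs were compared directly, 4 of the 9 genes other than HMOX1 (GCLM, TXNRD1, SRXN1 and FTH1) were higher with siLINC01534-1 and 2 (NQO1 and GCLC) were higher with siLINC01534-2. Of all genes tested, 19.5% were higher and 22.3% were lower with siLINC01534-1 in this comparison, so that a difference between the siRNAs was common among all genes. The median of the 9 differences was 0.08, and HMOX1 was higher with siLINC01534-1 by 0.62 on the log2 scale.

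Genes that control NRF2 were taken from a list of 12, of which 11 could be tested. The list also holds family relatives, NFE2L1, NFE2L3 and BACH2 among them, so its counts are not of NRF2 control alone. With siLINC01534-1, 6 were higher and 1, the ligase subunit gene RBX1, was lower, with a median log2 change of 0.23. With siLINC01534-2, 6 were higher and 2, CUL3 and NFE2L3, were lower, with a median of 0.20. The shares over all genes tested were 21.8% higher and 24.5% lower with siLINC01534-1, and 11.1% and 11.8% with siLINC01534-2. KEAP1, the sensor that holds NRF2, was at 60.3 and 61.2 FPKM in parent cells, at 60.2 and 61.0 with siLINC01534-1, and at 69.9 and 69.8 with siLINC01534-2. Its libraries under siLINC01534-1 overlapped those of parent cells (limma, adjusted p = 0.93, 95% interval of the log2 change -0.08 to 0.08). Under siLINC01534-2 it was higher, by 0.20 (limma, adjusted p = 0.013). BACH1, the repressor of HMOX1, was at 5.51 and 5.17 FPKM in parent cells, at 6.94 and 7.30 with siLINC01534-1, and at 7.17 and 8.39 with siLINC01534-2. BACH1 RNA was higher with both, by 0.36 and 0.47 (limma, adjusted p = 0.02 and 0.018).

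By the mean change over both siRNAs among genes called with both, the first 4 of the list were the genes of the small MAF partners of NRF2 (MAFF, MAFG and MAFK) and SQSTM1, whose product is an autophagy receptor that binds KEAP1, with BACH1 next and nearly level with MAFK. MAFF was at 5.29 and 6.48 FPKM in parent cells, at 15.4 and 15.7 with siLINC01534-1, and at 17.3 and 15.8 with siLINC01534-2. SQSTM1 was at 109.9 and 114 FPKM in parent cells, at 266 and 256 with siLINC01534-1, and at 252 and 249 with siLINC01534-2. Parent libraries were lowest in both genes. The log2 changes of MAFF were 1.27 and 1.35 (limma, adjusted p = 0.0004 and 0.0015), and those of SQSTM1 1.22 and 1.16 (adjusted p = 4.4e-05 and 0.00015). MAFG rose by 0.80 and 0.41 (limma, adjusted p = 0.00043 and 0.01), and MAFK by 0.44 and 0.38 (adjusted p = 0.0019 and 0.0087). In the windows around the start sites, the core motif TGACNNNGC was present for 3 of the 10 genes of this list with an entry, KEAP1, MAFF and RBX1. That is 30%, beside 16.1% of all genes. By window it was present in 3 of 18 (16.7%), near the 13.3% of all windows.

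A list of 27 other known NRF2 targets was set beside the 10 genes, and 21 could be tested. With siLINC01534-1, 13 were higher and 0 were lower, with a median log2 change of 0.30. With siLINC01534-2, 7 were higher and 3 (TKT, PRDX1 and ABCC2) were lower, with a median of 0.16. Over all genes tested, 21.8% were higher and 24.5% lower with siLINC01534-1, and 11.1% and 11.8% with siLINC01534-2. The 3 lower genes were thus near that share. In the direct comparison, 11 were higher with siLINC01534-1 and 2 (GSR and ABCC3) were higher with siLINC01534-2, beside 19.5% and 22.3% of all genes. Leaving out either siLINC01534-2 library lowered the 7 to 4, and the 3 lower calls fell to 0 or 1 whichever library was left out. Leaving out either siLINC01534-1 library lowered the 11 to 7. The core motif was present in 7 of 22 windows of these genes (31.8%, beside 13.3% of all windows), which belonged to 7 of 17 genes with an entry (41.2%, beside 16.1% of all genes).

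Among the targets called in the same direction with both siRNAs, those with the largest mean change were SLC7A11, the lipid hydrolase gene ABHD4, TRIM16L and TRIM16. ABHD4 was at 7.64 and 7.96 FPKM in parent cells, at 23.0 and 21.1 with siLINC01534-1, and at 15.1 and 14.4 with siLINC01534-2, and its log2 changes were 1.39 and 0.84 (limma, adjusted p = 9.6e-05 and 0.0016). TRIM16L was at 7.96 and 7.37 FPKM in parent cells, at 15.6 and 16.9 with siLINC01534-1, and at 9.75 and 10.7 with siLINC01534-2, with changes of 1.00 and 0.37 (limma, adjusted p = 0.00036 and 0.021). All siLINC01534 libraries of both genes were above both parent libraries. TRIM16, from 18.2 and 19.4 FPKM in parent cells to between 26.9 and 32.3 in the others, changed by 0.57 and 0.72 (limma, adjusted p = 0.0018 and 0.003). TRIM16L is a partial copy of TRIM16, and reads may be shared between them.

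Another 2 targets, which differed between the siRNAs, were chosen for mention after their values were seen. AKR1B10, an aldo-keto reductase gene, was at 0.356 and 0.714 FPKM in parent cells, at 4.37 and 4.11 with siLINC01534-1, and at 1.07 and 1.17 with siLINC01534-2. The log2 change was 1.78 with siLINC01534-1 (limma, adjusted p = 0.00051) and 0.48 with siLINC01534-2 (adjusted p = 0.068), and the siRNAs differed by 1.30 (adjusted p = 0.0018). These are low levels, at which the added 1 FPKM understates the change. ABCC2, the gene of an exporter of conjugates, was at 34.4 and 34.999 FPKM in parent cells, at 58.4 and 56.8 with siLINC01534-1, and at 30.9 and 30.7 with siLINC01534-2. It rose by 0.71 with siLINC01534-1 (limma, adjusted p = 0.00014), and the siRNAs differed by 0.88 (adjusted p = 0.00012). The change of -0.17 with siLINC01534-2 (limma, adjusted p = 0.028) was not called under the replicate block, without the trend or in 5 of the 6 fits that left out a library. PGD and TALDO1, 2 genes of the pentose phosphate pathway on the list, did not pass the test with either siRNA, with log2 changes between -0.10 and 0.03 (limma, adjusted p from 0.18 to 0.69). TKT, of the same pathway, was lower with siLINC01534-2, with a change of -0.17 (limma, adjusted p = 0.022). That call was lost without the trend, under the replicate block and in most of the fits that left out a library, where the test is weaker.

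**Figure D3:**
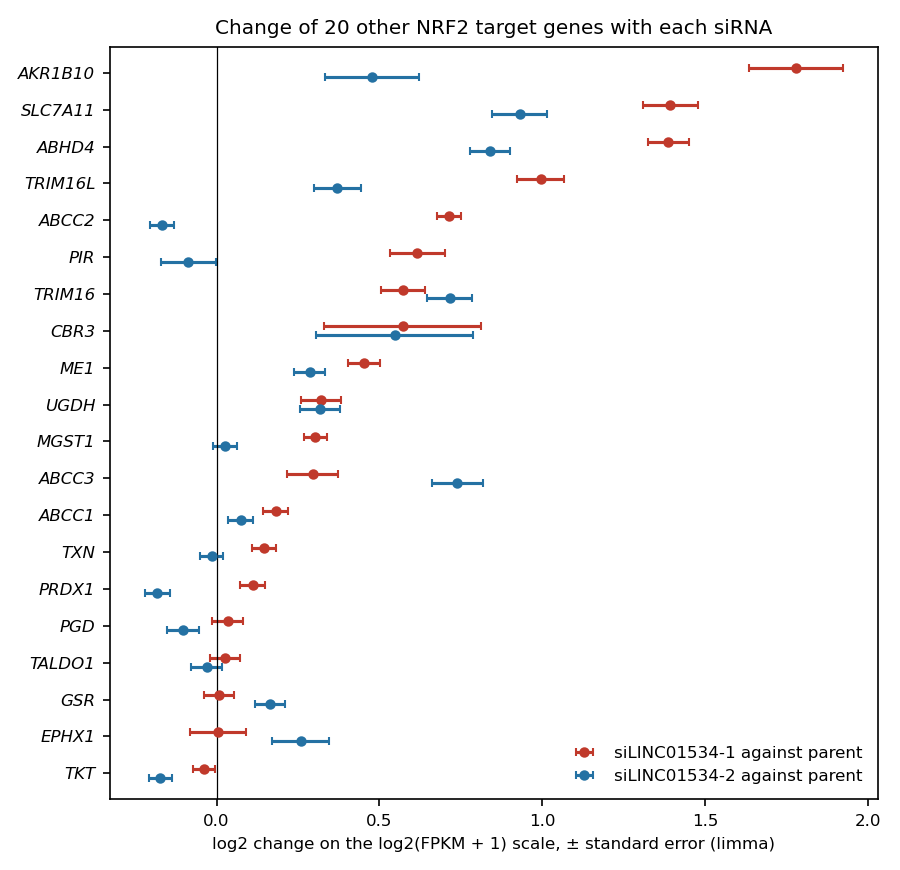
Log2 change (x axis, limma on log2(FPKM + 1)) of 20 tested NRF2 targets that are not among the 10 genes, with siLINC01534-1 (red) and siLINC01534-2 (blue) against parent cells, ordered by the former, with standard errors. Changes with siLINC01534-1 run from 1.78 (AKR1B10) down to -0.04 (TKT), and those with siLINC01534-2 from 0.93 (SLC7A11) down to -0.18 (PRDX1).

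Heme and iron handling, the process in which HMOX1 and ferritin act, was followed in a list of 26 genes, of which 23 could be tested. With siLINC01534-1, 10 were higher and 7 lower, with a median log2 change of 0.11, and with siLINC01534-2, 4 (BLVRB, ABCB6, SLC39A14 and NCOA4) were higher and 3 (STEAP3 and ACO1 among them) lower, with a median of -0.05. The shares with siLINC01534-2 were thus not far from the 11.1% and 11.8% of all genes tested. With siLINC01534-1, 21.8% of all genes tested were higher and 24.5% were lower. Of the 2 biliverdin reductase genes, BLVRA, whose product acts on the biliverdin that heme oxygenase forms, was between 19.9 and 21.6 FPKM in all libraries and was not called with either siRNA (limma, adjusted p = 0.12 and 0.61). BLVRB was at 73.0 and 76.1 FPKM in parent cells, at 187 and 177 with siLINC01534-1, and at 97.2 and 93.2 with siLINC01534-2. ABCB6, a porphyrin transporter gene, was at 12.51 and 13.01 FPKM in parent cells, at 25.2 and 24.8 with siLINC01534-1, and at 15.7 and 15.2 with siLINC01534-2. BLVRB and ABCB6 had siLINC01534-1 highest, siLINC01534-2 intermediate and parent cells lowest, as for HMOX1, with no overlap of groups. The log2 changes were 1.28 and 0.35 for BLVRB (limma, adjusted p = 5.6e-05 and 0.0067) and 0.92 and 0.26 for ABCB6 (adjusted p = 0.00013 and 0.016). SLC39A14, a zinc and iron importer gene, was higher by 0.47 and 0.38 (limma, adjusted p = 0.0026 and 0.014), and STEAP3, an endosomal ferrireductase gene, was lower, with changes of -0.33 and -0.20 (adjusted p = 0.0025 and 0.029). ACO1, the gene of iron regulatory protein 1 and named after its values were seen, was at 25.5 and 22.8 FPKM in parent cells, at 25.6 and 26.8 with siLINC01534-1, and at 11.0 and 10.2 with siLINC01534-2, where it was lower by a log2 change of -1.11 (limma, adjusted p = 0.00098).

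Enzymes of glutathione use and peroxide removal formed a list of 27 genes, of which 23 could be tested. With siLINC01534-1, 9 were higher and 7 lower, and with siLINC01534-2, 1 was higher and 4 (GPX8, SOD2, PRDX2 and PRDX3) were lower, with medians of 0.06 and -0.03. Of all genes tested, 21.8% and 24.5% were higher and lower with siLINC01534-1, and 11.1% and 11.8% with siLINC01534-2. The 1 higher gene with siLINC01534-2 was GLRX, the gene of glutaredoxin 1. GLRX was at 12.5 and 10.6 FPKM in parent cells, at 33.0 and 30.1 with siLINC01534-1, and at 20.4 and 24.7 with siLINC01534-2, with log2 changes of 1.38 and 0.91 (limma, adjusted p = 0.00058 and 0.0068). GPX8, the gene of a peroxidase of the endoplasmic reticulum, was lower with both, by changes of -1.18 and -0.41 (limma, adjusted p = 0.00015 and 0.011). SOD2, the mitochondrial superoxide dismutase gene, was lower with changes of -0.28 and -0.13 (limma, adjusted p = 0.002 and 0.046). Catalase (CAT) was not called with either siRNA, with log2 changes of -0.07 and 0.02 (limma, adjusted p = 0.28 and 0.82).

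HMOX1 can be induced by other stress pathways, and 3 short lists of their targets were therefore counted. Of 10 tested ATF4 targets, genes of the integrated stress response, 10 were higher with siLINC01534-1 and 9 with siLINC01534-2, beside 21.8% and 11.1% of all genes. Their median log2 changes were 1.4 and 1.3. Among them, DDIT3 went from 17.5 and 19.5 FPKM in parent cells to between 73.5 and 90.2 in the others, with log2 changes of 1.97 and 2.13 (limma, adjusted p = 8.5e-05 and 0.00026). ATF3 went from 11.88 and 13.02 to between 45.2 and 62.2 FPKM, with changes of 2.22 and 1.87 (limma, adjusted p = 5.4e-05 and 0.00026). CHAC1, whose product degrades glutathione, changed by 1.39 and 1.44 (limma, adjusted p = 7.2e-05 and 0.00024), and DDIT4 by 1.36 and 1.43 (adjusted p = 0.0001 and 0.00031). The medians of the 9 genes other than HMOX1, 0.81 and 0.51, were lower than those of this list, a description with no test.

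Of 10 HSF1 targets, the heat shock genes, 10 were lower with siLINC01534-1 and 9 with siLINC01534-2, beside 24.5% and 11.8% of all genes. Their median log2 changes were -0.49 and -0.31. The largest change with siLINC01534-1 was that of HSPD1, from 1095 and 1062 FPKM in parent cells to 299 and 298. With siLINC01534-2 HSPD1 was at 879 and 862. Its log2 changes were -1.85 and -0.31 (limma, adjusted p = 1.2e-05 and 0.0039), and with siLINC01534-2 HSPB1 and HSPA1B changed more. HSPA1B changed by -0.74 and -0.53 (limma, adjusted p = 0.00027 and 0.0027), HSPH1 by -0.68 and -0.32 (adjusted p = 0.00026 and 0.0087) and HSPB1 by -0.36 and -0.54 (adjusted p = 0.00083 and 0.001). HSPA1A and HSPA1B are near-identical copies, so their separate values are uncertain. Of 5 tested metal-response genes, metallothioneins and the zinc exporter gene SLC30A1, 3 (MT1E, MT1X and MT2A) were lower and 0 higher with siLINC01534-1. With siLINC01534-2, 2 (MT1X and SLC30A1) were higher and 0 lower. Beside these stand 24.5% of all genes lower with siLINC01534-1 and 11.1% higher with siLINC01534-2. In the libraries in which HMOX1 was higher, ATF4 targets were mostly higher and heat shock genes mostly lower, and metal-response genes differed between the siRNAs. What part any of these pathways has in the level of HMOX1 was not tested.

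**Figure D4:**
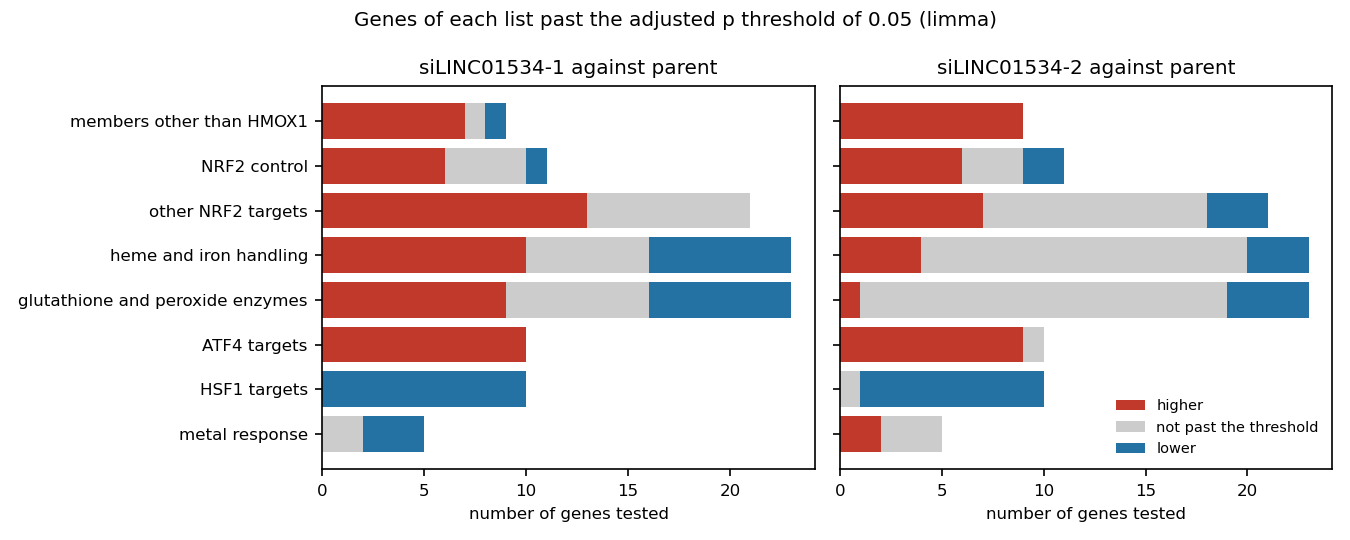
Number of tested genes of each list (x axis) that were higher (red), lower (blue) or not past the adjusted p threshold of 0.05 (grey) with siLINC01534-1 (left) and siLINC01534-2 (right) against parent cells, by limma. All 9 genes other than HMOX1 were higher with siLINC01534-2, and 10 of 10 and 9 of 10 HSF1 targets were lower.

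The genes whose pattern over the 6 libraries was most like that of HMOX1 were found by the Euclidean distance between log2(FPKM + 1) values after subtraction of the parent mean, among 11966 genes. This distance counts the size of the change as well as its shape. HMOX1 was picked for the size of its rise, so genes with large rises are bound to lie nearest and genes with smaller changes farther away. The ranks are a description without a test. The 5 nearest were UPP1 (distance 0.715), a uridine phosphorylase gene, then LURAP1L (0.737), ATF3 (1.01), the laminin subunit gene LAMB3 (1.22) and DDIT3 (1.24). UPP1 was at 14.9 and 13.7 FPKM in parent cells, at 81.4 and 73.4 with siLINC01534-1, and at 63.0 and 67.0 with siLINC01534-2. LURAP1L was at 0.836 and 0.718 FPKM in parent cells and between 7.52 and 8.14 in the others, and LAMB3 was at 15.5 and 14.9 and between 61.6 and 66.9. At the low level of LURAP1L the added 1 FPKM understates its change, its ratios to parent being 10.26 and 9.795. The order of HMOX1 was not shared by all 5. The means with siLINC01534-1 and siLINC01534-2 were 64.23 and 64.23 FPKM for LAMB3, and 75.12 and 84.34 for DDIT3. None of the 5 belongs to the other 9 genes, and the nearest of these were OSGIN1 at rank 33 (distance 2.47) and GCLM at rank 102 (3.27). GCLC was at rank 122, SRXN1 at 160, TXNRD1 at 171, FTH1 at 195 and FTL at 318. NFE2L2, at rank 2417, and NQO1, at rank 8080, were farthest.

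**Figure D5:**
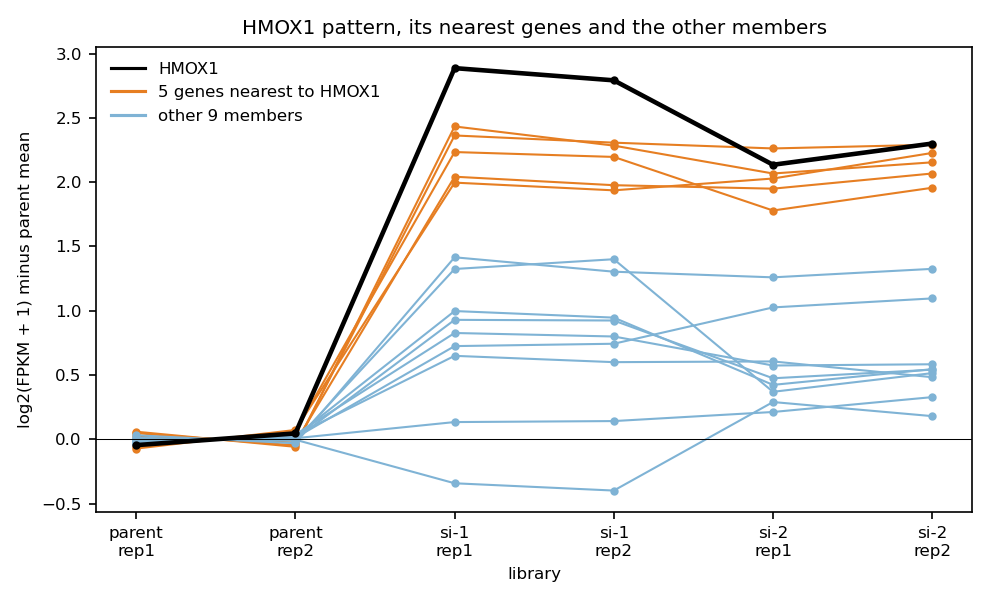
Log2(FPKM + 1) minus the parent mean (y axis) in each of the 6 libraries (x axis) for HMOX1 (black), its 5 nearest genes (orange) and the 9 other genes (blue), with lines joining the values of a gene. The orange lines stay near HMOX1, between 1.78 and 2.43 in the siLINC01534 libraries, while the blue lines lie lower, with NQO1 below 0 with siLINC01534-1.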

How the data were processed

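The data were 6 RNA-seq libraries of HCT116 cells, in 3 groups of 2 (parent, siLINC01534-1 and siLINC01534-2). According to the methods and the labels, the authors prepared stranded poly(A) libraries, read 75 bases from 1 end of each fragment, aligned the reads to hg19 using TopHat2 2.0.13, Bowtie2 2.2.3 and SAMtools 0.1.19, and deposited the FPKM that Cuffnorm (Cufflinks 2.2.1) gave per gene symbol and library. The annotation is not given in the sources used here. The methods give 3 cultures per group and another RNA kit than the labels, which give 2 libraries. Groups were taken from the labels.

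The deposited FPKM were taken to log2(FPKM + 1), and the 12203 genes whose FPKM averaged 1 or more were tested with limma 3.58.1 in R 4.3.3 (eBayes with trend), with 1 mean per group over all 6 libraries, two-sided, and Benjamini-Hochberg adjustment over all genes (threshold 0.05). The script was checked on simulated data. Ratios are ratios of mean FPKM without a pseudocount. The files hold no read counts, so library depth was inferred from the step that 1 read makes in low values and from the length, less 200 nt, of 213 single-transcript genes (quartiles for the first parent library, 9580000 and 10300000 reads), and reads behind a gene are approximate. Gene positions are those of GENCODE on GRCh37, and promoter windows come from RefSeq on GRCh38.p14. Python 3.11.15, pandas 2.3.3 and numpy 2.4.6 were used.

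The 10 genes and the lists were chosen with earlier results of these data known. From each list, up to 4 genes called with both siRNAs in the same direction, with the largest mean change, are named, with KEAP1, BACH1, HMOX2 and the 5 genes nearest to HMOX1. Genes outside this rule (AKR1B10, ABCC2, ACO1, CAT, PGD, TALDO1, BLVRA, CD68, COL1A1, and those that make up a count of 5 or fewer) were chosen after seeing their values. The alternatives were a pseudocount of 0.1, no filter, a mean FPKM of at least 5, scaling to a common median, no trend, the replicate number as a block, and leaving out each library. No library was left out of the results. The values of some listed genes are not reported here.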

Additional observations from a re-analysis of the deposited data

Results flagged for a closer look

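When siLINC01534-1 was set against siLINC01534-2, 21 of the genes named by the rule above differed past the threshold. The test was limma on log2(FPKM + 1), Benjamini-Hochberg over all genes, positive values being higher with siLINC01534-1. HMOX1, nearest genes outside the lists and genes chosen after seeing their values are not in this count. AKR1B10 and ABCC2, for example, also differed. In this comparison 19.5% of all genes tested were higher and 22.3% lower. Most genes named from the lists were picked for their calls against parent cells in these data. The 21 can therefore not be measured against these shares. Among the 9 genes other than HMOX1, the log2 difference was 0.921 for GCLM, 0.488 for SRXN1, 0.419 for TXNRD1 and 0.235 for FTH1, and it was -0.606 for NQO1 and -0.327 for GCLC. The 2 subunits of glutamate-cysteine ligase thus differed in opposite directions, and NQO1 was the one gene of the 9 called in opposite directions against parent cells. Among genes that control NRF2, the difference was 0.386 for MAFG and -0.203 for KEAP1.

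Other NRF2 targets had differences of 0.462 (SLC7A11), 0.549 (ABHD4) and 0.626 (TRIM16L). Among heme and iron genes they were 0.928 (BLVRB) and 0.659 (ABCB6). Among glutathione and peroxide enzymes the values were 0.474 (GLRX), -0.772 (GPX8) and -0.151 (SOD2). ATF3 differed by 0.347. Of the heat shock genes, HSPD1 differed by -1.54, HSPH1 by -0.364, HSPA1B by -0.211 and HSPB1 by 0.173.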

How the results depend on the processing

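With 2 libraries per group, leaving out 1 leaves 1 in its group, and calls near the threshold can change while the size of the change does not. Read numbers behind low genes are few. Of 324 recalculated changes of the 9 genes other than HMOX1, 312 kept direction and side of the threshold, 9 lost the call and 3 gained it, all 12 on leaving out a library. Calls of NQO1, GCLM and NFE2L2 with siLINC01534-2, of FTH1 between the siRNAs, and of NFE2L2 with siLINC01534-1 and between the siRNAs were those concerned. The ratio of HMOX1 to parent was between 7.22 and 7.72 with siLINC01534-1 and between 4.56 and 5.12 with siLINC01534-2 when any library was left out.

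When each library was left out in turn, the count of all genes higher with siLINC01534-2 was 491 to 1000 and of lower genes 443 to 1065, and the number higher with siLINC01534-1 than with siLINC01534-2 was 1362 to 2128. Of the 21 other NRF2 targets, 4 to 8 were then higher and 0 to 1 lower with siLINC01534-2, and 7 to 11 were higher and 1 to 2 lower with siLINC01534-1 than with siLINC01534-2. Without the trend, 0 of them were lower with siLINC01534-2 and 1 was lower in the comparison of the siRNAs. Without a filter, 2136 genes were over 2-fold higher and 1680 lower with siLINC01534-1, and 1700 higher and 1527 lower with siLINC01534-2. With a mean FPKM of at least 5, 171 were higher with siLINC01534-1, and 112 higher and 81 lower with siLINC01534-2, since fewer genes are tested. Changes near 0 that turned in sign were those of DDIT4 between the siRNAs (from -0.143 to 0.0169, the latter without the second siLINC01534-2 library), KEAP1 with siLINC01534-1 (from -0.0157 to 0.00704, with 0.00704 without the second parent library and 0.00537 without the first siLINC01534-1 library) and HMOX2 with siLINC01534-1 (from -0.138 to 0.00395, the latter without the second parent library). The causes were not tested.

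The labels do not say whether libraries with the same replicate number were handled together. The deviations of libraries with the same number from their group means correlated, across genes, by 0.11, 0.027 and -0.046. These low values cannot settle that question. With the number as a replicate block, the 9 genes kept 7 higher and 1 lower call with siLINC01534-1, 9 higher with siLINC01534-2, and 4 higher and 2 lower between the siRNAs. Of the other NRF2 targets, 0 were lower with siLINC01534-2 and 1 was lower between the siRNAs under the block. Over all genes the block gave 2376 higher and 2738 lower with siLINC01534-1, and 988 and 1005 with siLINC01534-2.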
